A study of Mus musculus with 12 samples.

Results

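The genes described here are those of the mouse mitochondrial genome, which carries its own small set of RNAs for making respiratory chain proteins. They were chosen by position alone. Every gene listed on chrM was taken, which gave 37 of the 37675 genes in each library. The set holds 2 rRNA genes, 22 tRNA genes and 13 protein-coding genes, with 28 genes on the plus strand and 9 on the minus strand. Positions and strands of all 37 equal those of the GENCODE annotation of the same build (NCBIM37, also called mm9). In 32 of the 37 genes at least 1 count was recorded, and 5 were at 0 in every mouse.

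The study followed the first wave of spermatogenesis in whole testis of C57BL/6NHsd mice at postnatal day (PND) 7, 14, 17, 21 and 28, with 2 mice at each age and no treatment. Later ages add more advanced germ cells to a testis that holds somatic cells and spermatogonia at PND 7. RNA was depleted of ribosomal RNA before sequencing, and 50-base SOLiD reads were counted per gene. For each PND 7 mouse the counts of 2 barcodes were summed. Library totals ran from 3994026 to 13559548 counts, with a median of 7103531, and between 704074 and 3597577 of these fell on chrM genes. With 2 mice an age, each p-value rests on the spread between 2 animals, pooled over the 5 ages. In whole testis, fewer cells of a type and less RNA per cell cannot be told apart.

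Mitochondrial DNA is copied from both strands into long precursor RNAs by the polymerase Polrmt, with the help of Tfam. The tRNAs lie between most of the rRNA and messenger genes, and cutting them out releases the other RNAs. The messengers are then adenylated and kept stable by Lrpprc and its partner, while the rRNAs enter the mitochondrial ribosome together with nuclear-encoded Mrpl and Mrps proteins. Nuclear genomes also hold old copies of mitochondrial DNA, and reads that match such a copy equally well have more than 1 place of origin.

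Much of the mouse mitochondrial genome had a perfect nuclear copy at the length of these reads. Of the 16250 windows of 50 bases along the 16299 bases of chrM, 5818 were found unchanged in a nuclear chromosome, and 7043 were found when 1 mismatch was allowed. The largest copy lay on the minus strand of chromosome 1 in 2 adjoining stretches. The first, chr1:24619587-24623027, differed from chrM:6390-9830 at 3 of 3441 bases, and the second, chr1:24618372-24619598, differed from chrM:9818-11044 at 2 of 1227 bases. Both edges of the copy fell inside genes. The left edge was inside mt-Co1 (subunit I of cytochrome c oxidase) and the right edge inside mt-Nd4 (a subunit of complex I). The sequences at both edges and at the start of mt-Co2, which lies wholly inside, are given because they show where a read could and could not be placed. Capitals mark the bases that chrM and chromosome 1 share at the same position of the ungapped alignment, and the chromosome 1 sequence is written from its minus strand.

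Left edge, chrM:6360-6429: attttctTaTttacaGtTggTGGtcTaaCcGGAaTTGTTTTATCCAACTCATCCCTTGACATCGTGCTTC
Left edge, chr1:24622988-24623057: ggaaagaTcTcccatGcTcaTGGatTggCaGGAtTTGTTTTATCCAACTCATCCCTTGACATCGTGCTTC
mt-Co2 start, chrM:7013-7072: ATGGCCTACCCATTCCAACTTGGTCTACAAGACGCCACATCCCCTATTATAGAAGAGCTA
mt-Co2 start, chr1:24622345-24622404: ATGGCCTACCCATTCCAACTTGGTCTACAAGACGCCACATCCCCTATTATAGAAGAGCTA
Right edge, chrM:11005-11074: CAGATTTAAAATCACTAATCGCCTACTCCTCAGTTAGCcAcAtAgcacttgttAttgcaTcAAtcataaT
Right edge, chr1:24618342-24618411: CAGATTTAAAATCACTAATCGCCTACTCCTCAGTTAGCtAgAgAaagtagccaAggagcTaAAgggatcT

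The first 60 bases of mt-Co2 were identical in both places. In 15 genes, between 99.0% and 100% of the windows inside the gene had an exact nuclear copy, and these 15 together held 309 counts in all 10 mice. They were the protein-coding genes mt-Co2, mt-Co3 (cytochrome c oxidase), mt-Atp6, mt-Atp8 (ATP synthase), mt-Nd3 and mt-Nd4l (complex I), and 9 tRNA genes. The highest count among them in any mouse was 31, for mt-Co3. By contrast, the 3 protein-coding genes with no copied window, mt-Nd1, mt-Nd6 and mt-Cytb, held 180572 counts. The nuclear side of the copy was just as empty. The genes Gm10222 and Gm10925, which lie in the copied stretch of chromosome 1, had 0 to 1 and 1 to 9 counts per mouse. The study assigned reads with a unique place to genes, and counts were few in both places, so no level is read here for these 6 protein-coding genes, and their low values do not say how much of these messengers the testis held.

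**Figure D1:**
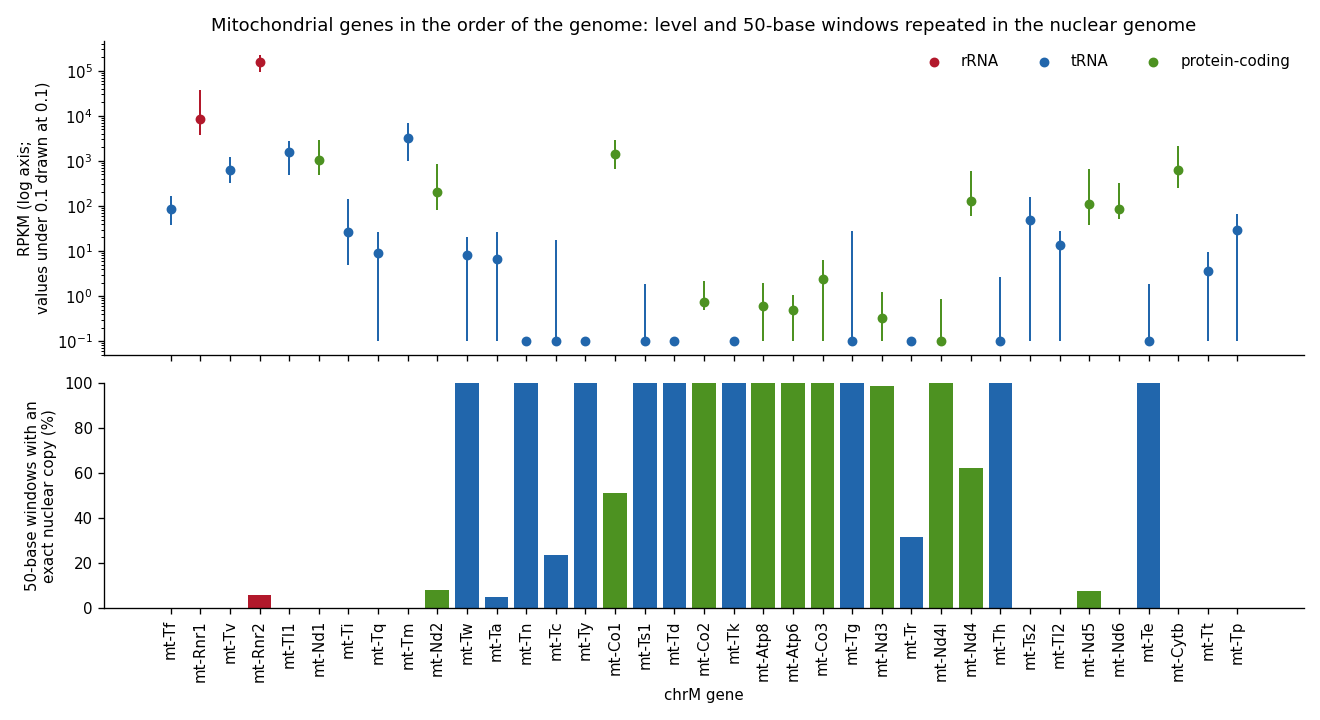
Upper panel: RPKM (counts scaled by exon length and library size, log axis) of each chrM gene in genome order, with points at the median of the 10 mice and lines from the lowest to the highest mouse. Lower panel: percent of the 50-base windows inside each gene that have an exact nuclear copy. Genes at or near 100% in the lower panel, from mt-Tw to mt-Te, sit at the bottom of the upper panel, with medians of at most 8.08 RPKM.

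Other genes were copied in part. In mt-Co1 51.1% of the windows had an exact copy, in mt-Nd4 62.2%, in mt-Nd2 8.29%, in mt-Nd5 7.61% and in mt-Rnr2 6.13%. By median RPKM over the 10 mice, the order of the measurable messengers was mt-Co1 (1405), mt-Nd1 (1064), mt-Cytb (644), mt-Nd2 (202), mt-Nd4 (129), mt-Nd5 (108) and mt-Nd6 (86.4). When counts were instead divided by the number of windows without an exact copy, a measure chosen after seeing the data, with windows in place of bases in the RPKM formula, mt-Co1 came to 2909. That was 2.07 times its RPKM. On the same scale mt-Nd4 came to 346, or 2.68 times its RPKM, and passed mt-Nd2 at 225. All neighbours in this order overlapped in their ranges of RPKM over the 10 mice. Within a gene the same windows have a copy in every library, so its levels can be set side by side across ages.

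Most counts on chrM fell on the rRNA genes. The rRNA genes took 96.7% ± 0.307 (SD, n = 2) of chrM counts at PND 7 and 98.3% ± 0.347 at PND 28, while the protein-coding genes took 3.18% ± 0.293 at PND 7 and 1.54% ± 0.285 at PND 28. Per length (RPKM), the tRNA genes took a larger part, 1.47% ± 0.238 of summed chrM RPKM at PND 7 and 4.08% ± 1.26 at PND 28. As a share of all counts in the library, the protein-coding genes held 1.11% and 1.24% in the PND 7 mice. They held 0.655% and 0.381% at PND 14, 0.369% and 0.453% at PND 17, 0.526% and 0.472% at PND 21, and 0.202% and 0.272% at PND 28. Both PND 7 mice were above all 8 later mice and both PND 28 mice were below all others, whereas PND 14, 17 and 21 overlapped. These are shares of what was left after rRNA depletion and after the authors filtered reads on rRNA and tRNA, so they are not shares of the RNA in the testis.

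**Figure D2:**
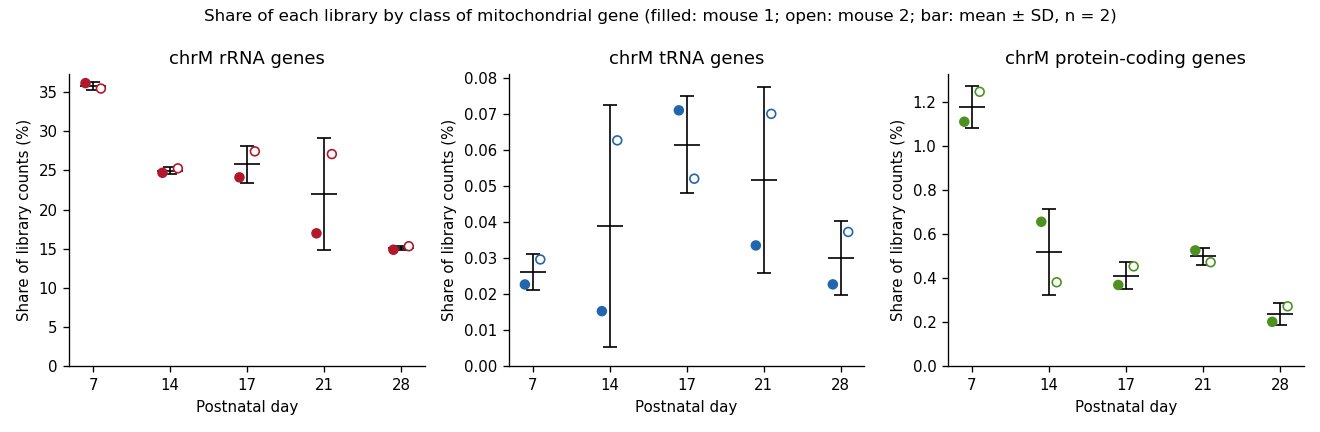
Percent of all library counts on chrM rRNA, tRNA and protein-coding genes at each postnatal day. Points are mice and bars give mean ± SD of 2 mice. The protein-coding share is highest in both PND 7 mice (1.11% and 1.24%) and lowest in both PND 28 mice, whereas the tRNA share differs about as much between mice of an age as between ages.

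The smaller rRNA, mt-Rnr1 (12S, chrM:70-1024), and the larger, mt-Rnr2 (16S, chrM:1094-2675), behaved differently from mouse to mouse. The rRNA of the small subunit made up 1.18% and 3.44% of the library in the PND 7 mice, 0.881% and 0.505% at PND 14, and 0.535% and 0.749% at PND 17. It made up 2.25% and 0.821% at PND 21 and 0.353% and 0.674% at PND 28. PND 7 mouse 2 and PND 21 mouse 1 stood above all other mice. The high value of PND 7 mouse 2 was present under both of its barcodes, at 3.46% and 3.43%, against 1.18% and 1.17% in the barcodes of PND 7 mouse 1.

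Both rRNAs come from the same stretch of precursor, yet their ratio was not constant. The RPKM ratio of mt-Rnr2 to mt-Rnr1 was 17.9 and 5.61 at PND 7, 16.3 and 29.6 at PND 14, 26.6 and 21.5 at PND 17, 3.94 and 19.3 at PND 21, and 24.9 and 13.1 at PND 28. The lowest ratio of all, in PND 21 mouse 1, and the value of the other PND 21 mouse lay on either side of both PND 7 mice. PND 14 and PND 28 also overlapped with PND 7, whereas both PND 17 mice were above both PND 7 mice. Ribosomal RNA was depleted before sequencing and filtered afterwards, and the part of either step in these ratios was not tested.

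Against the messengers, rRNA counts were higher at PND 28 than at PND 7. There were 32.6 and 28.5 rRNA counts for each protein-coding count at PND 7, and 73.7 and 56.4 at PND 28. In between, the values were 37.7 and 66.3 at PND 14, 65.4 and 60.5 at PND 17, and 32.3 and 57.4 at PND 21. PND 14 mouse 1 and PND 21 mouse 1 were close to the PND 7 mice, while the other 6 mice from PND 14 on were well above them. By the paper's mapping statistics, PND 14 mouse 1, PND 21 mouse 1 and both PND 7 mice also had the largest parts of filtered reads on introns. The part of this library difference in these ratios and in the messenger levels by age was not tested. In a fit scaled to the chrM protein-coding counts, mt-Rnr2 was higher at PND 28 than at PND 7 by 1.14 ± 0.77 (log2, SE), which did not pass the test (edgeR adjusted p = 0.19).

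The question put to the series was which genes differed between ages, tested with edgeR's quasi-likelihood test on the whole table of 16860 genes. A gene was called at an adjusted p (Benjamini-Hochberg) under 0.05 and a change of at least 2-fold. Of the 37 chrM genes, 19 had enough counts to be tested, mt-Co3 among them with at most 31 counts in a mouse. Levels are given as CPM, counts scaled to the TMM-adjusted size of the library.

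From PND 7 to PND 14 the mitochondrial messengers fell. Of the 19 chrM genes tested, 9 fell, 1 rose and 9 were not called, while 18.9% of all genes tested were called, 5.43% lower and 13.5% higher. The 9 were the 7 measurable protein-coding genes, mt-Rnr1 and the isoleucine tRNA gene mt-Ti. The median log2 fold change of the 19 was -1.04, beside 0.11 for all genes. From PND 14 to PND 17 edgeR called none of the 19 and 0% of all genes. None of the 19 had an unadjusted edgeR p under 0.05, beside 769 of the 16860 genes tested. DESeq2 and limma also called none of the 19.

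mt-Co1 encodes the catalytic subunit of cytochrome c oxidase. It measured 4192 and 3993 CPM in the PND 7 mice, 1981 and 1626 at PND 14, 1653 and 2059 at PND 17, 2028 and 2604 at PND 21, and 1217 and 1390 at PND 28. The PND 7 mice were above all others and the PND 28 mice below all others. The log2 fold change was -1.18 ± 0.26 (SE) from PND 7 to PND 14 (adjusted p = 0.0098) and -1.65 from PND 7 to PND 28 (adjusted p = 0.00032).

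mt-Nd6 is the only messenger of the minus strand and encodes a complex I subunit. Its level was 149.7 and 157 CPM at PND 7, 48.1 and 41.5 at PND 14, 35.7 and 45.9 at PND 17, 39.3 and 47.5 at PND 21, and 32.1 and 34.8 at PND 28. Mice of an age lay close together, and the 8 later mice were all between 32.1 and 48.1 CPM. The log2 fold change was -1.77 ± 0.22 at PND 14 (adjusted p = 0.000292) and -2.20 at PND 28 (adjusted p = 1.45e-05), both against PND 7. These are the lowest adjusted p-values among the chrM genes. Whether counting used the strand is not given in the sources used here, so antisense RNA of the plus strand and mt-Nd6 cannot be told apart.

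mt-Cytb encodes cytochrome b, the mitochondrial subunit of complex III. It measured 2220 and 2240 CPM at PND 7, 1312 and 578 at PND 14, 559 and 736 at PND 17, 1095 and 743 at PND 21, and 343 and 548 at PND 28. PND 14 mouse 1 had 2.27 times the level of PND 14 mouse 2, and PND 21 mouse 1 had 1.47 times that of PND 21 mouse 2. Against PND 7 the log2 fold change was -1.24 ± 0.39 at PND 14 (adjusted p = 0.0443) and -2.32 at PND 28 (adjusted p = 0.000547).

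The other complex I messengers moved the same way. mt-Nd1 measured 2383 and 2623 CPM at PND 7, 1315 and 910 at PND 14, 829 and 975 at PND 17, 838 and 1152 at PND 21, and 547 and 728 at PND 28. mt-Nd2 measured 594 and 821, 361 and 176, 139 and 199, 299 and 222, and 99.6 and 189 CPM at the same ages. The PND 7 mice were above all later mice for both. Their log2 fold changes from PND 7 to PND 14 were -1.17 for mt-Nd1 (adjusted p = 0.0151) and -1.40 for mt-Nd2 (adjusted p = 0.0301).

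mt-Nd4 and mt-Nd5, 2 further subunits of complex I, differed more between mice of an age. mt-Nd4 measured 589 and 783 CPM at PND 7, 286 and 136 at PND 14, 126 and 162 at PND 17, 281 and 197 at PND 21, and 99.2 and 155 at PND 28. mt-Nd5 measured 572 and 1129, 306 and 113, 138 and 193, 451 and 202, and 82.2 and 179 CPM at the same ages. For mt-Nd5 the higher mouse of an age had 1.97 times the level of the lower at PND 7, 2.70 times at PND 14, 1.40 times at PND 17, 2.23 times at PND 21 and 2.18 times at PND 28. For mt-Co1 the same ratio stayed between 1.05 and 1.28. Even so, both PND 7 mice were above every later mouse for both genes. From PND 7 to PND 14 the log2 fold change of mt-Nd4 was -1.70 ± 0.37 (SE, adjusted p = 0.00919). Against PND 7 the log2 fold change of mt-Nd5 was -2.02 ± 0.57 at PND 14 (adjusted p = 0.0280) and -2.71 at PND 28 (adjusted p = 0.00206).

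**Figure D3:**
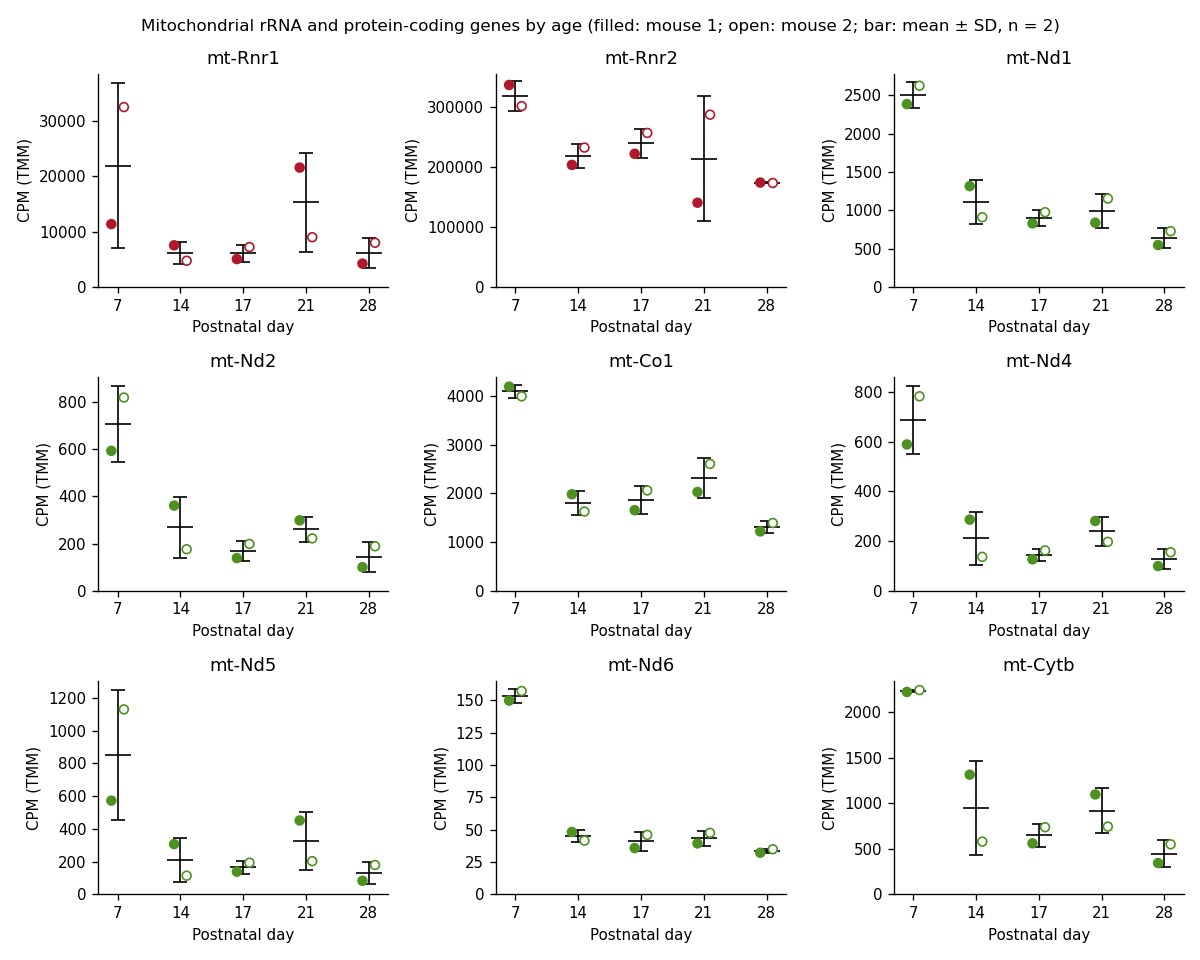
CPM after TMM scaling of the 2 rRNA genes and the 7 measurable protein-coding genes at each postnatal day. Points are mice and bars give mean ± SD of 2 mice. All 7 protein-coding genes are highest in both PND 7 mice.

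The calls at PND 14 rested unequally on single mice. Leaving out each of the 10 mice in turn, mt-Co1 and mt-Nd6 were called 10 times of 10, mt-Nd4 9 times, mt-Nd1, mt-Nd2 and mt-Nd5 8 times, and mt-Rnr1, mt-Ti and mt-Cytb 3 times. Without PND 7 mouse 2, and likewise without PND 14 mouse 2, fewer chrM genes were called, and fewer of all genes tested. Without PND 7 mouse 2 the log2 fold change of mt-Rnr1 was -0.88. Scaling on nuclear genes only left 8 calls at PND 14, beside 19% of all genes. The calls lost were mt-Cytb (edgeR adjusted p = 0.0537) and mt-Rnr1 (adjusted p = 0.052). Library totals left 7, beside 18.5% of all genes.

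The share of single messengers among the messenger counts was also compared. mt-Co1 was 39.2% and 34.0% of the protein-coding chrM counts at PND 7 and 50.2% and 43.1% at PND 28, and PND 14 mouse 1, at 35.3%, lay within the PND 7 range. mt-Nd5 was 5.34% and 9.61% at PND 7 and 3.39% and 5.55% at PND 28, so that these ages overlapped. When all libraries were scaled to the protein-coding chrM counts, edgeR called 0 of the 10 protein-coding and rRNA genes tested (mt-Co3 included) between PND 7 and PND 14 or between PND 7 and PND 28, and 0 had an unadjusted p under 0.05. Of all genes, 58.0% and 69.6% were called in these comparisons. Each messenger is part of the total used for scaling, which draws its change towards 0. mt-Co1 was 34.0% to 50.3% of that total. No messenger was shown to fall faster than the rest, but 0 calls here do not show that all fell evenly.

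From PND 17 to PND 21 none of the 19 genes was called by edgeR, with 10.3% of all genes called. In this step 1 chrM gene had an unadjusted edgeR p under 0.05, beside 4759 of the 16860 genes tested. DESeq2 called mt-Rnr1 and limma called none. From PND 21 to PND 28 none was called either, with 7.66% of all genes called. There, 8 of the 19 had an unadjusted edgeR p under 0.05, beside 4021 of the 16860 genes tested. All 8 had lower fitted levels at PND 28. DESeq2 called none and limma called mt-Co1 and mt-Tq. The log2 fold change of mt-Co1 over this step was -0.83 ± 0.26 (adjusted p = 0.0800).

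Over the whole wave, from PND 7 to PND 28, 9 of the 19 genes fell and 1 rose, and the 9 were those that fell by PND 14. In this comparison 55.6% of all genes were called, 23.4% lower and 32.2% higher, so that 10 calls among 19 genes is near the background while their direction was mostly down. The median log2 fold change of the 19 was -1.65, beside 0.10 for all genes. Among the messengers the log2 fold changes ran from -1.65 for mt-Co1 to -2.71 for mt-Nd5. In the test for any difference among the 5 ages, 9 of the 19 passed, against 57.5% of all genes tested, and these were the same 9 that fell.

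**Figure D4:**
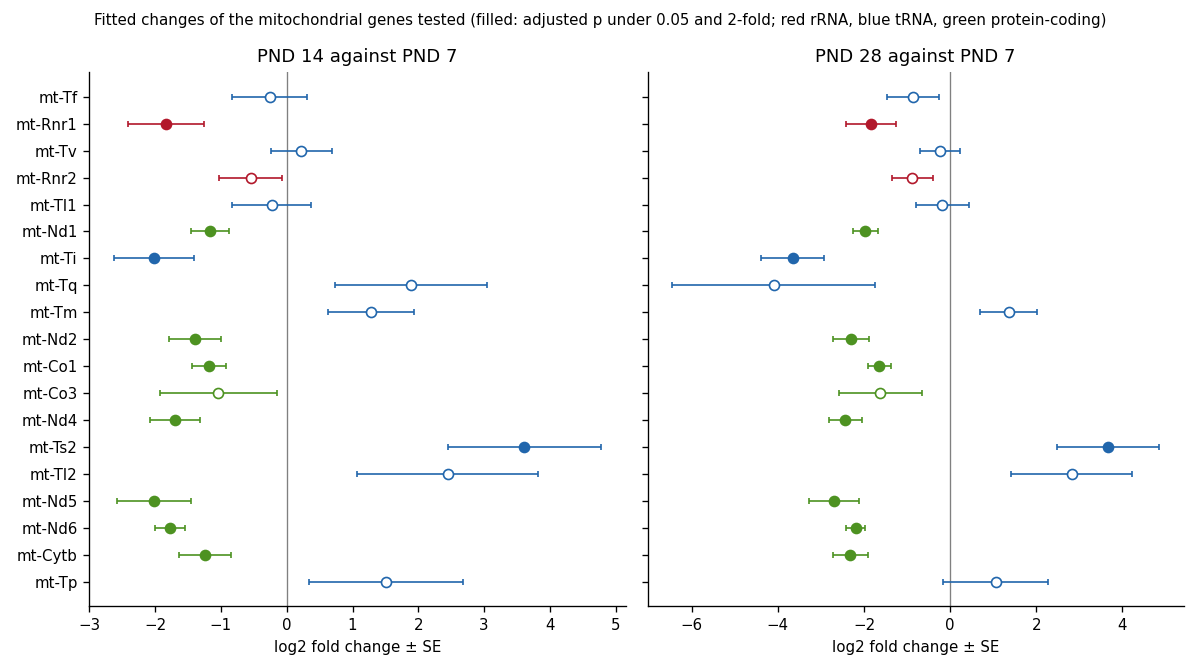
Log2 fold change (edgeR, bars are SE) of the 19 chrM genes tested, in genome order, for PND 14 against PND 7 and PND 28 against PND 7. Filled points passed the test. The 7 measurable messengers, mt-Rnr1 and mt-Ti lie left of 0 and are filled in both panels, mt-Ts2 is the filled point on the right, and mt-Tq was at 0 in both PND 28 mice so that its fitted value there is no measure of size.

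The larger rRNA, mt-Rnr2, was not called in any comparison. It made up 34.9% and 32.0% of the library at PND 7, 23.8% and 24.7% at PND 14, 23.6% and 26.7% at PND 17, 14.7% and 26.2% at PND 21, and 14.5% and 14.6% at PND 28. Both PND 7 mice were above all others. Its log2 fold change was -0.55 ± 0.47 from PND 7 to PND 14 (adjusted p = 0.426) and -0.88 ± 0.48 from PND 7 to PND 28 (adjusted p = 0.130). mt-Rnr1 fell by 1.83 ± 0.58 on the log2 scale from PND 7 to PND 14 (adjusted p = 0.0446) and by 1.84 from PND 7 to PND 28 (adjusted p = 0.0171). Without PND 7 mouse 2 the second value was -0.90 (adjusted p = 0.196), and without PND 28 mouse 1 it was -1.44, and neither was called.

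The tRNA genes held 31317 counts in all 10 mice, although reads on tRNA had been filtered by the authors. Of these, 95.6% fell on 3 of the 22 genes, those for methionine, leucine and valine. The sequences of these 3 and of mt-Ts2, a serine tRNA that was the only gene called higher, are shown because none of them had a 50-base window with a nuclear copy. Capitals mark the anticodon, which was found as its 3 letters after a pyrimidine and before a purine in the middle of the gene.

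mt-Tm (methionine), chrM:3845-3913: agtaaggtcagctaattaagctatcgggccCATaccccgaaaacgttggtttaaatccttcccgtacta
mt-Tl1 (leucine), chrM:2676-2750: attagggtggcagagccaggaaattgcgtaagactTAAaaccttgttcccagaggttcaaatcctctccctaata
mt-Tv (valine), chrM:1025-1093: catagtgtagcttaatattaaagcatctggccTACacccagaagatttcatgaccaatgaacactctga
mt-Ts2 (serine), chrM:11613-11671: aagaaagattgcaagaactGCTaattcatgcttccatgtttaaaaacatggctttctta

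All 4 are on the plus strand. A read of 50 bases covers most of such a gene of 59 to 75 bases, so a count can come from a mature tRNA or from a precursor that holds it. Few counts fell on the tRNA genes annotated on the minus strand, and since strand use in counting is not given, their RNA and antisense RNA of the plus strand cannot be told apart. Of these 8 tRNA genes, 4 had windows without a nuclear copy (mt-Tq, mt-Ta, mt-Tc and mt-Tp), and these held 11 to 172 counts each over all mice. The 9 plus-strand tRNA genes with such windows held 0 to 17771. Of the 19 tRNA genes outside the leading 3, 5 had 0 counts in every mouse (mt-Tn, mt-Ty, mt-Td, mt-Tk and mt-Tr), 5 had 1 to 20 counts in all mice together, and 9 had more than 20. For 4 of the 5 at 0, all windows had a nuclear copy. The arginine tRNA gene mt-Tr was at 0 although 31.6% of its windows had one.

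No fall was called for the leading tRNA genes. mt-Tm measured 65.2 and 104 CPM at PND 7, 69.0 and 344 at PND 14, 437 and 301 at PND 17, 191 and 432 at PND 21, and 138 and 295 at PND 28. mt-Tl1 measured 101 and 116 at PND 7, 30.2 and 155 at PND 14, 139 and 130 at PND 17, 77.2 and 222 at PND 21, and 101 and 90.3 at PND 28. mt-Tv measured 35.1 and 39.6 CPM at PND 7, 22.4 and 64.7 at PND 14, 67.0 and 51.9 at PND 17, 41.9 and 90.7 at PND 21, and 26.9 and 36.9 at PND 28. PND 14 mouse 1 and PND 21 mouse 1 were below the other mouse of their age for all 3. Within PND 14 the other mouse was higher by 4.98 times for mt-Tm, 5.12 times for mt-Tl1 and 2.89 times for mt-Tv. None of the 3 was called in any comparison of ages. The log2 fold change of mt-Tm was 1.28 ± 0.65 from PND 7 to PND 14 (adjusted p = 0.178) and 1.35 ± 0.65 from PND 7 to PND 28 (adjusted p = 0.0927).

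Of the rarer tRNA genes, 2 were called, in opposite directions. mt-Ts2 had 5 and 0 counts in the PND 7 mice, 13 and 44 at PND 14, 120 and 16 at PND 17, 7 and 35 at PND 21, and 14 and 25 at PND 28. It was called higher than at PND 7 both at PND 14 (adjusted p = 0.0479) and at PND 28 (adjusted p = 0.0192), but at PND 14 the call held in 2 of the 10 fits with a mouse left out. mt-Ti had 45 and 69 counts at PND 7, 15 and 13 at PND 14, 24 and 8 at PND 17, 7 and 5 at PND 21, and 3 and 3 at PND 28. It lies directly after mt-Nd1 and also fell, by 2.02 ± 0.61 on the log2 scale to PND 14 (adjusted p = 0.0375) and by 3.66 to PND 28 (adjusted p = 0.00121).

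In the fit scaled to the protein-coding chrM counts, which sets each gene against the messengers, 6 of the 19 genes were called higher at PND 14 (mt-Tv, mt-Tq, mt-Tm, mt-Ts2, mt-Tl2 and mt-Tp) and 6 at PND 28 (mt-Tv, mt-Tl1, mt-Tm, mt-Ts2, mt-Tl2 and mt-Tp). mt-Tm was higher by 2.85 ± 0.72 (log2, SE) at PND 14 (edgeR adjusted p = 0.0034) and by 3.31 at PND 28 (adjusted p = 0.000645). mt-Tf was not called on this scale, nor was mt-Ti, whose fitted values were -0.67 and -1.65. At PND 14 and PND 28, 58.0% and 69.6% of all genes were called, with 57.7% and 67.8% called higher, and the median of all genes went from 0.11 to 1.44 at PND 14 and from 0.10 to 2.12 at PND 28, so 6 of 19 is below the background.

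Other short RNAs were set beside the mitochondrial tRNAs, without a test of association. Nuclear genes for small structural RNAs (annotated as snRNA, snoRNA or misc_RNA) took 3.84% and 3.31% of the library at PND 7, 4.31% and 8.28% at PND 14, 8.34% and 6.70% at PND 17, 3.01% and 5.75% at PND 21, and 2.80% and 3.35% at PND 28. The summed share of the mitochondrial tRNA genes was 0.0227% and 0.0296%, 0.0153% and 0.0626%, 0.0710% and 0.0520%, 0.0335% and 0.0700%, and 0.0227% and 0.0372% at the same ages. At PND 14, 17, 21 and 28 the mouse with more small structural RNA also had more mitochondrial tRNA, while at PND 7 it had less. The part of library fragment size in the tRNA values was not tested.

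**Figure D5:**
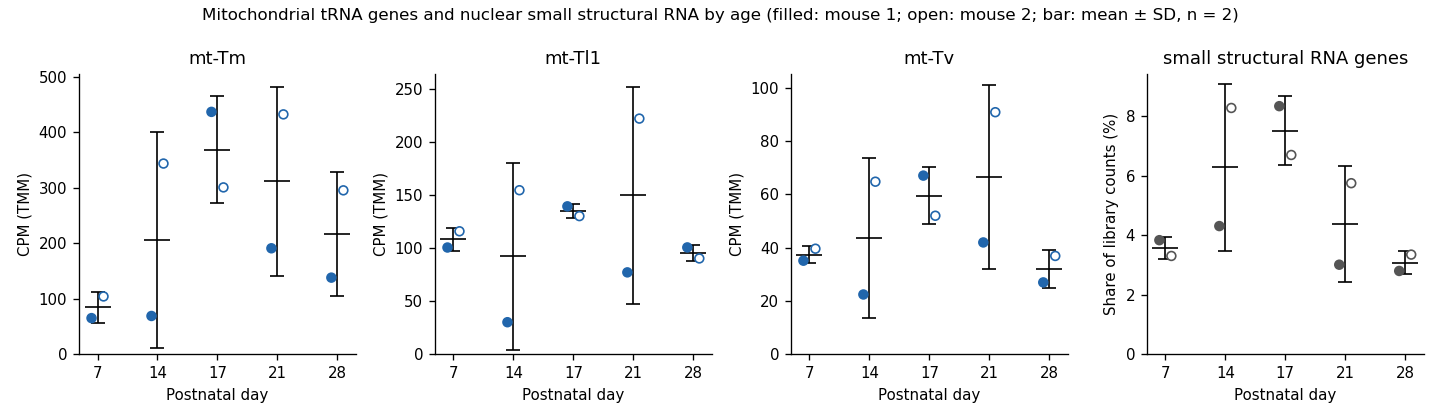
CPM after TMM scaling of mt-Tm, mt-Tl1 and mt-Tv, and percent of library counts on nuclear small structural RNA genes, at each postnatal day. Points are mice and bars give mean ± SD of 2 mice. PND 14 mouse 1 and PND 21 mouse 1 (filled points) are below the other mouse of their age in all 4 panels, by 4.98 times for mt-Tm and 5.12 times for mt-Tl1 at PND 14.

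The fall of the messengers came as the makeup of the testis changed. Summed CPM of 7 Sertoli cell markers were 2619 and 2245 at PND 7, 2226 and 1513 at PND 14 and 731 and 840 at PND 28, with 6 of the 7 called lower at PND 28 than at PND 7. All 7 spermatocyte markers and all 7 spermatid markers were called higher at PND 14 than at PND 7, beside 13.5% of all genes. The paper's most advanced germ cells were early pachytene spermatocytes at PND 14 and round spermatids at PND 21. Calls of spermatid markers at PND 14 therefore do not show spermatids at that age. The spermatid sum was 0.600 and 0 CPM at PND 7, 396.5 and 430.5 at PND 14, and 9249 and 10100 at PND 28. All 7 spermatid markers were at 0 in PND 7 mouse 2. Striated muscle and brown fat, tissues rich in mitochondria, were represented by 4 markers with a summed level of 10.2 and 19.2 CPM at PND 7 and of 1.45 to 4.72 later. Of these, Actn2 and Myh6 had enough counts to be tested. Both were called lower at PND 14 than at PND 7, beside 5.43% of all genes. The part of any of these cells in the mitochondrial values was not tested.

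Nuclear genes that make and handle mitochondrial RNA were counted by list. Of 17 genes for transcription and replication of mitochondrial DNA, 1 was called lower and 16 were not called from PND 7 to PND 14. This is the step at which the messengers fell. Of all genes, 5.43% were called lower and 13.5% higher, so 1 lower call among 17 is near the background for lower calls. The gene called was Mterfd3, at 9.89 and 7.38 CPM at PND 7 and 3.08 and 3.94 at PND 14. Polrmt, the polymerase, measured 18.3 and 27.8 CPM at PND 7, 30.9 and 31.6 at PND 14, and 27.6 and 25.8 at PND 28. Its log2 fold change from PND 7 to PND 14 was 0.44 ± 0.27 (adjusted p = 0.264), and it was not called in any comparison.

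Tfam, which packages mitochondrial DNA and starts its transcription, was highest at the end of the wave. It measured 42.4 and 63.3 CPM at PND 7, 31.5 and 30.8 at PND 14, 28.1 and 26.6 at PND 17, 21.2 and 20.2 at PND 21, and 155 and 204 at PND 28. From PND 7 to PND 14 its log2 fold change was -0.76 ± 0.25 (SE, adjusted p = 0.0482), which is under 2-fold and was not a call. Both PND 28 mice were above all others, and Tfam rose by 3.12 ± 0.27 (log2, SE) from PND 21 to PND 28 (adjusted p = 0.000196). The mouse testis is known to make a Tfam isoform that lacks the mitochondrial targeting sequence, and gene counts do not part isoforms. Tfb1m, a methyltransferase of the 12S rRNA, also rose over this step, by 1.26 ± 0.27 (adjusted p = 0.0167), from 21.4 and 23.9 to 60.7 and 47.9 CPM.

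From PND 7 to PND 28, 3 of the 17 rose and 4 fell. Ssbp1, which binds single-stranded mitochondrial DNA, went from 38.8 and 30.3 to 8.85 and 7.14 CPM, and Ccdc111, a primase, from 18.7 and 28.6 to 5.17 and 6.68. Dguok, a mitochondrial nucleoside kinase, was the only one of the 17 called from PND 17 to PND 21, beside 10.3% of all genes. It went from 20.8 and 26.8 to 10.0 and 11.9 CPM. With 55.6% of all genes called from PND 7 to PND 28, 7 of 17 is below the background.

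Of 26 genes for processing and decay of mitochondrial RNA, 1 rose from PND 7 to PND 14, and 6 rose and 4 fell from PND 7 to PND 28. These are smaller shares than the 18.9% and 55.6% of all genes called. The gene that rose first was Pde12, which removes adenine tails from mitochondrial RNA, at 16.4 and 14.4 CPM at PND 7 and 28.5 and 42.3 at PND 14. Lrpprc, which keeps the messengers stable, measured 94.8 and 129.7 CPM at PND 7, 130.0 and 132 at PND 14 and 88.0 and 112 at PND 28, and was not called in any comparison. Ptcd1, a pentatricopeptide repeat protein of mitochondria, rose from 16.8 and 17.0 CPM at PND 7 to 68.7 and 51.4 at PND 28. Of 2 overlapping genes listed as Nsun4, 1 was called higher, at 14.7 and 32.2 CPM at PND 28 (log2 fold change 1.89 against PND 7, adjusted p = 0.00717), and the other was not (log2 0.59, adjusted p = 0.24), and reads in the overlap cannot be assigned to either with certainty. Trmu and Gtpbp3, which modify mitochondrial tRNAs, fell to PND 28, from 21.3 and 19.3 to 6.94 and 6.45 CPM and from 9.09 and 13.5 to 3.54 and 5.07.

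Of 75 mitochondrial ribosomal protein genes tested, 2 rose and 1 fell from PND 7 to PND 14, beside 13.5% and 5.43% of all genes. From PND 7 to PND 28, 20 rose and 5 fell. These 20 of 75 are a smaller share than the 32.2% of all genes called higher, and the 25 called are a smaller share than the 55.6% called over all genes. Mrps31 went from 11.7 and 7.24 CPM to 27.8 and 44.9 at PND 14 and 63.7 and 63.4 at PND 28. Mrpl39 went from 32.5 and 56.5 at PND 7 to 270.1 and 228 at PND 28. Mrpl49 fell from 26.4 and 28.0 to 8.85 and 8.75 CPM, and Mrps21 also fell over the wave, by 1.72 on the log2 scale. At PND 14 the other calls were Mrpl27, which rose from 1.70 and 0.805 to 3.19 and 6.30 CPM, and Mrpl52, which fell from 44.6 and 53.5 to 18.5 and 30.4. Mrpl3 was the only one called from PND 21 to PND 28, beside 7.66% of all genes. It fell from 43.1 and 45.4 to 19.5 and 21.4 CPM.

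Of 14 nuclear genes for abundant proteins of mitochondrial membranes and matrix, 3 rose and 5 fell from PND 7 to PND 28, so that the 8 called are close to the 55.6% of all genes. Slc25a4, an ADP/ATP carrier of the inner membrane, was the only one called between other ages. It fell from 127.5 and 139 CPM at PND 17 to 41.0 and 67.7 at PND 21, beside 10.3% of all genes called. From PND 7 to PND 14 Vdac2 changed by 0.62 ± 0.20 (log2, SE; adjusted p = 0.0462), which is under 2-fold and was not a call. Vdac2, an outer membrane channel, rose to PND 28 from 68.0 and 64.7 to 364 and 341 CPM, and Phb, an inner membrane scaffold protein, went from 5.80 and 3.89 to 1.63 and 0.922. Vdac3 also rose and Timm23 also fell, with log2 fold changes of 1.36 and -1.67. The median log2 fold change of the 14 from PND 7 to PND 28 was -0.45, beside 0.10 for all genes tested.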

How the data were processed

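Whole testes of 10 mice were sequenced on the SOLiD 4 platform. The authors aligned the reads to the mm9 build, the one given in their processing notes, with LifeScope. Before counting they left out rRNA, tRNA and repeat reads and reads placed at over 10 positions, assigned reads with a unique place to Ensembl genes, and deposited a raw count of reads per gene and an RPKM value for each library. Strand use in counting is not given in the sources used here. The members were all genes on chrM, and the members and gene lists were chosen with earlier results of these data known.

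Counts of the 2 barcodes of each PND 7 mouse were added. edgeR 4.0.16 (R 4.3.3) was run on all 10 mice with filterByExpr, TMM scaling and the quasi-likelihood test, which left 16860 genes. A call needed an adjusted p (Benjamini-Hochberg) under 0.05 and a 2-fold change. The steps were tested on simulated data. DESeq2 1.42.0 and limma 3.58.1 on log2(RPKM + 1) were alternatives, together with other scalings, filters and left-out mice. Every 50-base window of chrM was searched in the nuclear chromosomes of NCBIM37, exactly and with 1 mismatch. All 37 genes could be named. Values per mouse were given for both rRNA genes, the measurable protein-coding genes and tRNA genes with a mean of at least 100 counts, and the 6 protein-coding genes copied almost whole were given by their counts. Of each nuclear list, up to 2 called genes in each direction were named for each comparison, besides Polrmt, Tfam and Lrpprc. Slirp, also on the rule's list, was not matched by symbol and is not reported. mt-Ts2 and mt-Ti, under the mean of 100 counts, were given per mouse after their values were seen. The numbers 1 and 2 of the mice did not pair samples across ages.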

Additional observations from a re-analysis of the deposited data

How the results depend on the processing

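Over the 20 pairs of a chrM gene and a comparison that were called, 460 values under other tests, scalings, filters, samples and left-out mice all kept their direction, and 391 of them were still called. Among them are the 20 values of the main fit without the 2-fold rule, which could not differ. A fit of all 12 libraries, which took the 2 barcodes of a PND 7 mouse as separate samples, is also counted. Scaling to the chrM protein-coding counts, which asks for change relative to the messengers, ended most calls. It gave 6 genes at PND 14 and 6 at PND 28 against PND 7, all higher, and 5 for any difference among ages. Of all genes, 58%, 69.6% and 69.9% were called there. Under this scaling the log2 fold change of mt-Nd1 was 0.13 at PND 14 and 0.018 at PND 28, and that of mt-Co1 was 0.14 and 0.35. That of mt-Rnr1 at PND 28 was 0.14. Each is opposite in sign to the value given. On a scale set by the messenger total, messenger changes balance around 0. Signs above 0 for mt-Nd1 and mt-Co1 therefore say nothing about their fall in the library.

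From PND 7 to PND 14, limma called 6 chrM genes with a pseudocount of 1 and 4 with 0.1, by the study's rule of an unadjusted p of at most 0.01, beside 3.65% and 3.59% of all genes. Without a filter, edgeR called 1 gene from PND 17 to PND 21, 4 from PND 21 to PND 28 and 14 for any difference, beside 9.25%, 7.35% and 42.7% of all genes. DESeq2 called 1 from PND 17 to PND 21, beside 13.3%. From PND 21 to PND 28, library totals gave 1 (5.57% of all genes), only the 4 mice compared gave 2 (12.8%), and limma gave 2 with a pseudocount of 1 (3.15%) or 0.1 (1.95%). The cause of these shifts was not tested.

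Leaving out mice gave 2 to 10 genes from PND 7 to PND 14, 0 to 2 from PND 21 to PND 28, 8 to 11 from PND 7 to PND 28 and 7 to 14 for any difference. The values of 2 and 14 came from leaving out PND 7 mouse 2 and from leaving out PND 14 mouse 1 and PND 21 mouse 1 together, the second of which was chosen after seeing the data. Without PND 14 mouse 2 there were 4 from PND 7 to PND 14. From PND 7 to PND 14 the share of all genes called was also lowest without PND 7 mouse 2 and next lowest without PND 14 mouse 2. The low counts in these fits were therefore not particular to the chrM genes. Where an age kept 1 mouse, that mouse was assumed to vary like the other ages.

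With the replicate number as a block (replicate block), 6 genes were called from PND 7 to PND 14, beside 17.5% of all genes. From PND 7 to PND 28 there were 11, beside 54.7%, and 10 for any difference, beside 55.1%. The numbers do not pair the samples: the correlation of deviations from the age means, for mice of the same number, ran from -0.25 to 0.40.

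Taking the library without small structural RNAs, the rRNA share was 37.1% at PND 7 and 15.6% at PND 28. Taking it without chrM rRNA, the PND 7 shares were 1.83% for protein-coding and 0.0407% for tRNA genes. Depth limits the rarer tRNA genes, since 3 counts stand for 0.221 to 0.751 CPM of a library before TMM scaling.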
